A study of Mus musculus with 7 samples.

Results

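A group of 100 genes was examined whose RNA was higher in the β-cells of diabetic db/db mice than in those of lean db/+ mice, and was at a similar level in db/db mice whose β-cells carried a deletion of Aldh1a3. The members were chosen from the values of all 7 libraries, of 35013 gene symbols in the table. Levels are given as CPM, the count of a gene per 1000000 counts of its library. A mean of at least 10 CPM in db/db was reached by 8339 genes, and in 3240 of these (38.9%) each value of db/db and KO_db/db lay above each value of db/+. In 2666 the KO_db/db mean was between 0.67 and 1.5 times the db/db mean, and 2640 remained after predicted genes, RIKEN clones and pseudogenes were dropped by their symbols. The 100 with the largest log2 ratio of the db/db to the db/+ mean, 1 CPM added to each, are the members. Since this choice used the level of every gene in every group, the levels and fold changes of the members are given as a description, without a test. Just inside the rank were Klf11 at 1.96 and Bcl9l at 1.95 on that log2 scale, and the first genes outside it were Nin at 1.95, Ptpn13 at 1.94 and Celsr3 at 1.94.

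The libraries were made from sorted β-cells of 2 Aldh1a3 KO_db/db mice, 2 db/db mice and 3 db/+ mice, with a single mouse behind each library. The db mutation removes the working leptin receptor (Lepr), and mice with 2 copies (db/db) grow obese and diabetic while those with 1 copy (db/+) stay lean. All groups carried Cre recombinase driven by the rat insulin promoter (RIP-Cre Herr) and a floxed tdTomato reporter. KO_db/db mice had both Aldh1a3 alleles floxed, and the db/db and db/+ mice had 1, so that the control groups were heterozygous floxed rather than unmodified. The mice were 16 to 20 weeks old and were fasted for 16 hours before islets were isolated, and mice of both sexes were used in the study. Aldh1a3, which encodes a retinaldehyde dehydrogenase, was at 4.40 and 9.06 CPM in KO_db/db, 118 and 238 CPM in db/db and 0.178, 0.0638 and 0.514 CPM in db/+. The gate used for these libraries was not given in the sources used here, and fewer cells of a type and less RNA per cell cannot be told apart in libraries of pooled cells.

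Several libraries stood apart. Total counts were between 27496645 and 35852785. A list of 45 acinar genes took 17.6% and 1.99% of the counts in KO_db/db and at most 0.0573% in any other library, and 4 Y-linked genes were together at 88.1 CPM in db/+ mouse 3 and at 0.727 to 2.52 CPM elsewhere. Mitochondrially encoded genes took 7.22% to 11.3% of the counts in db/db and KO_db/db and 12.1% to 21.3% in db/+. The β-cell markers were present, with Ins1 and Ins2 together at 21.8% to 36.1% of the counts. Pdx1, a transcription factor of β-cells, was at 102 to 173 CPM. Other β-cell markers were lower in db/db. Slc2a2 was at 331 and 264 CPM in KO_db/db, 156 and 81.5 CPM in db/db and 929 to 1047 CPM in db/+. Ucn3 was at 250 and 286 CPM, 81.3 and 105 CPM and 492 to 507 CPM in the same order. Mafa was at 341 and 438 CPM, 69.3 and 113 CPM and 286 to 369 CPM. Iapp was higher in db/db, and Nkx6-1 overlapped between db/db and db/+. The defining markers of fibroblasts (Col1a1, Col3a1, Pdgfrb, Dcn) were under 1 CPM in each library, as were Ptprc, Csf1r, Cd68 and Cd3e of leukocytes. The B-cell marker Cd79a was at 35.3 and 22.3 CPM in KO_db/db, 1.2 and 2.97 CPM in db/db and 18.6 to 31.4 CPM in db/+, and 20 leukocyte genes summed to 54.8 to 91.6 CPM per library. Of 12 Schwann and neural genes, the summed level was 203 to 220 CPM in db/+ and 238 to 382 CPM in the other 4 libraries, and Sox10 was at 0 in all 7. The summed level of 13 ductal genes was 409 to 426 CPM in db/+ and 628 to 1121 CPM in the others. It included Krt7 at 151 to 401 CPM and Clu at 60.0 to 330 CPM. Krt19 was at 0.212 to 8.29 CPM, Sox9 at 0 to 1.17 CPM and Cftr at 0 to 1.02 CPM, and Tspan8 and Cldn7 were called lower in db/db. Delta and PP-cell genes (9) summed to 1477 and 1457 CPM in KO_db/db, 1050 and 648 CPM in db/db and 2556, 992 and 530 CPM in db/+. Alpha-cell genes (10) summed to 3736 and 4042 CPM in db/db and to 1257 to 1841 CPM in the other libraries. Of these, Ttr was at 2292 and 2113 CPM in db/db and 440 to 631 CPM elsewhere, and Gc was higher in db/db as well. The defining marker Gcg was not, at 724 and 429 CPM in db/db, 909 and 711 CPM in KO_db/db and 944, 1033 and 333 CPM in db/+. The 13 endothelial genes summed to 11.7 to 45.6 CPM, highest in db/+ mouse 3. The part of these differences in the levels of the members was not tested.

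β-Cells of diabetic mice lose part of their mature identity, a state called dedifferentiation, and Aldh1a3 is known as a marker of that state. The members encode parts of several machineries that most cells share. Cytolinkers (plakins and spectrins) tie actin, microtubules and intermediate filaments to each other and to the membrane. Golgins are long coiled-coil proteins that capture vesicles at the Golgi. Chromatin regulators write, read or erase methyl and acetyl groups on histones, or move nucleosomes. By role lists, 17 members were chromatin regulators, 10 cytolinkers and related scaffolds, 5 transcription factors, 5 regulators of small GTPases, 5 kinases, phosphodiesterases and adaptors of signalling, 4 adhesion or matrix proteins and 3 golgins, while 50 of the 100 were in none of the lists. All 100 are protein coding.

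Promoter sequences were searched because cAMP signalling through CREB is a known route of gene induction in β-cells, and the members include Sik1, a CREB target, and Crebbp, which encodes the CREB-binding protein. RefSeq promoters (GRCm38.p6, 250 bases before to 50 after each start) were matched for 76 of the 100 members. Sik1 was among the 24 without a match, so its promoter was not searched. Each motif was searched on both strands. The palindromic cAMP response element TGACGTCA was in 3 of the 76 (3.95%), against 3.73% of 6680 genes with a mean db/db level of at least 10 CPM and 2.03% of all 27025 promoters. The 3 promoters are shown around the element, 5′ to 3′ on the strand of the gene, with the element in capitals. That of Arl4d lies at chr11:101665470-101665540 on the plus strand, that of Otud7a at chr7:63444606-63444705 on the plus strand and that of Zfp335 at chr2:164911762-164911861 on the minus strand.
Arl4d: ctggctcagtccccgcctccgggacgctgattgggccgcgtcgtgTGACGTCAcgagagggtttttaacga
Otud7a: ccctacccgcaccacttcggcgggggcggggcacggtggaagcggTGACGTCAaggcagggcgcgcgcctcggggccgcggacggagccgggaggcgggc
Zfp335: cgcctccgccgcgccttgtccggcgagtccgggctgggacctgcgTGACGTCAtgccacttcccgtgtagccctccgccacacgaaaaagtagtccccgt

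The most frequent motif was the GC box GGGCGG, in 61 of the 76 member promoters (80.3%), against 73.0% of the expressed genes and 38.2% of all promoters. The promoter of Crebbp holds 2 overlapping GC boxes, shown in capitals as 1 run, at chr16:4213405-4213470 on the minus strand.
Crebbp: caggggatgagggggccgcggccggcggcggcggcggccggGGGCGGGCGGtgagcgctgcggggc
The shorter element TGACG, which is also part of the palindrome, was in 21 of 76 (27.6%), below the 38.7% of expressed genes. The E-box CACGTG was in 6 (7.89%) against 13.1%, the CCAAT box in 32 (42.1%) against 41.9%, TATAAA in 6 (7.89%) against 7.96%, and the nuclear receptor core AGGTCA in 10 (13.2%) against 14.6%. The median GC content of the member promoters was 64.5%, and that of the expressed genes 62.3%. A match describes the letters in the window and not a site in use.

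In most of the 25 genes of highest rank, the lowest of the 4 diabetic libraries was over 3 times the highest lean library, and Dnah9 (1.95 times) and Arhgap36 (2.37 times) were the exceptions. Zcchc12, a zinc finger co-activator of BMP signalling that ranked first, was at 17.3 and 33.9 CPM in KO_db/db, 34.1 and 39.3 CPM in db/db and 2.49, 2.17 and 4.48 CPM in db/+. Kcnk9, an acid-sensitive leak potassium channel, was at 4.58 and 15.7 CPM in KO_db/db, 4.3 and 17.2 CPM in db/db and 0.178, 0.223 and 0.393 CPM in db/+. In both diabetic genotypes the 2 mice differed for Kcnk9, with mouse 1 low and mouse 2 high, but the lowest of these values was still 10.9 times the highest in db/+. The means of Kcnk9 were 40.7-fold in db/db and 38.4-fold in KO_db/db relative to db/+, the largest folds of the group. In the lean libraries it rested on 5, 7 and 13 counts.

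**Figure D1:**
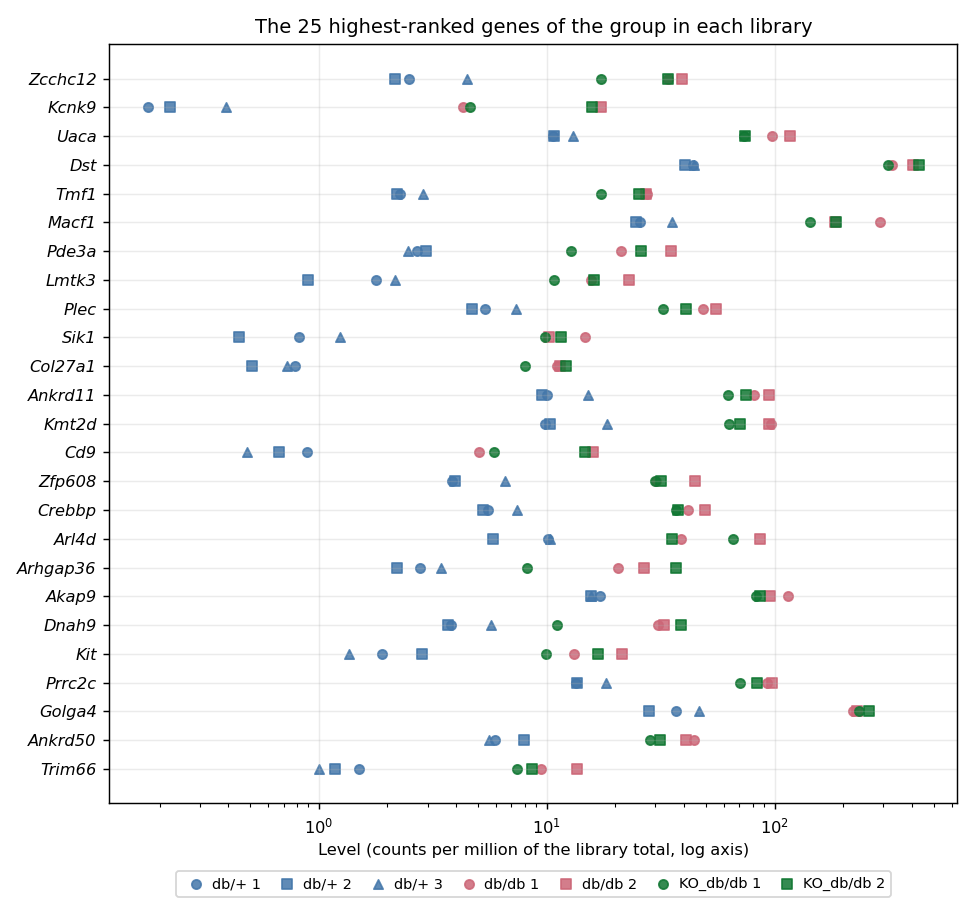
Level of the 25 genes with the largest log2 ratio of db/db to db/+ in each of the 7 libraries (CPM, log axis), with 1 point per library, coloured by group and shaped by mouse. In each row the 3 db/+ points lie to the left of the 4 points of db/db and KO_db/db, as the choice required. In many rows the 2 diabetic groups interleave, and Kcnk9 and Cd9 show a wide spread between mice of 1 group.

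Cytolinkers and related scaffolds gave 10 members, among them plakins. Dst (ENSMUSG00000026131.18, chromosome 1 from 33908225 to 34308661) encodes dystonin, a plakin that anchors intermediate filaments and microtubules, and was at 314 and 429 CPM in KO_db/db, 327 and 406 CPM in db/db and 43.6, 40.6 and 44 CPM in db/+. Macf1, a plakin that crosslinks microtubules and actin, was at 143 and 187 CPM in KO_db/db, 288 and 184 CPM in db/db and 25.7, 24.6 and 35.4 CPM in db/+. Plec, which encodes the cytolinker plectin, was at 32.4 and 40.9 CPM in KO_db/db, 48.3 and 55.5 CPM in db/db and 5.37, 4.69 and 7.32 CPM in db/+. By library totals Dst was at a similar level in both diabetic genotypes, with a KO_db/db mean 1.01 times that of db/db, whereas Macf1 and Plec had lower means in KO_db/db (0.697 and 0.706 times). On the log2 scale of the fit, the difference of Dst from db/+ was 2.61 (standard error 0.13) in db/db and 2.90 (standard error 0.10) in KO_db/db, that of Macf1 2.56 (standard error 0.24) in db/db and 2.31 (standard error 0.16) in KO_db/db and that of Plec 2.67 (standard error 0.20) in db/db and 2.45 (standard error 0.19) in KO_db/db. Ppl, which encodes the plakin periplakin of cell junctions, was at 10.7 and 15.8 CPM in KO_db/db, 17.1 and 18.3 CPM in db/db and 1.99, 3.00 and 3.06 CPM in db/+.

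Scaffolds of the centrosome, the microtubule tip and the membrane skeleton followed. Akap9, which anchors protein kinase A at the centrosome and Golgi, was at 83 and 86.1 CPM in KO_db/db, 114 and 95.5 CPM in db/db and 17.1, 15.6 and 15.6 CPM in db/+. Clip1, a protein of growing microtubule ends, was at 90.1 and 114 CPM in KO_db/db, 94.6 and 115 CPM in db/db and 21, 18.7 and 26 CPM in db/+. The lowest diabetic value was 4.86 times the highest lean one for Akap9 and 3.47 times for Clip1. Uaca, a coiled-coil protein with ankyrin repeats, was at 73.1 and 74.1 CPM in KO_db/db, 97.3 and 117 CPM in db/db and 10.7, 10.7 and 13.1 CPM in db/+. Sptb, a β-spectrin of the membrane skeleton, was at 28 and 33.6 CPM in KO_db/db, 18.2 and 26.5 CPM in db/db and 2.1, 4.46 and 5.23 CPM in db/+. Uaca was among the members with a lower KO_db/db mean (0.688 times db/db), while Sptb was among the 3 with the highest (1.38 times). Cep250, which holds centrioles together, was at 17.2 and 19.5 CPM in KO_db/db, 13.5 and 16.5 CPM in db/db and 2.17, 1.88 and 3.42 CPM in db/+, with a KO_db/db mean 1.22 times that of db/db. Motor proteins that stood in no list were members as well, among them Dync1h1, the heavy chain of cytoplasmic dynein, at 363 and 419 CPM in KO_db/db, 326 and 356 CPM in db/db and 67.2, 73.3 and 91.5 CPM in db/+. Dync1h1, which was named after its values were seen, did not overlap between lean and diabetic libraries, as the choice required.

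Golgins gave 3 members with the same pattern. Golga4, a golgin of the trans-Golgi, was at 236 and 259.5 CPM in KO_db/db, 219.7 and 230.1 CPM in db/db and 36.9, 28.1 and 46.3 CPM in db/+. Golgb1, which encodes giantin, was at 153 and 200.4 CPM in KO_db/db, 181 and 179 CPM in db/db and 35.9, 27.2 and 40.4 CPM in db/+. Tmf1, a golgin first described as a transcription modulator, was at 17.4 and 25.3 CPM in KO_db/db, 27.6 and 27.2 CPM in db/db and 2.28, 2.2 and 2.87 CPM in db/+. The means relative to db/+ were 6.06-fold in db/db and 6.67-fold in KO_db/db for Golga4, 5.22-fold in db/db and 5.11-fold in KO_db/db for Golgb1 and 11.2-fold in db/db and 8.72-fold in KO_db/db for Tmf1. The groups of lean and diabetic libraries did not overlap for any of the 3, as the choice required.

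Chromatin regulators were the largest role among the members. Kmt2d (ENSMUSG00000048154.17, chromosome 15 from 98831669 to 98871204) encodes a histone lysine methyltransferase of enhancers and was at 63.2 and 70.3 CPM in KO_db/db, 96.6 and 94.7 CPM in db/db and 9.81, 10.3 and 18.3 CPM in db/+. Kmt2a, a methyltransferase of the same family that acts at promoters, was at 73.9 and 84.6 CPM in KO_db/db, 51.8 and 76.4 CPM in db/db and 9.88, 9.79 and 12.9 CPM in db/+. Kdm6b, a demethylase that removes a repressive histone mark, was at 95.3 and 134 CPM in KO_db/db, 59.1 and 103 CPM in db/db and 11.5, 13 and 19.4 CPM in db/+. All 3 were several times the lean level in each diabetic library, but the order of the diabetic groups differed, with a KO_db/db mean 0.698 times that of db/db for Kmt2d, 1.24 times for Kmt2a and 1.41 times for Kdm6b. On the log2 scale of the fit the difference of Kmt2d from db/+ was 2.41 (standard error 0.27) in db/db and 2.18 (standard error 0.27) in KO_db/db, that of Kmt2a 2.07 (standard error 0.20) in db/db and 2.66 (standard error 0.15) in KO_db/db and that of Kdm6b 1.98 (standard error 0.29) in db/db and 2.74 (standard error 0.21) in KO_db/db.

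Further members are chromatin cofactors or act on DNA. Crebbp (ENSMUSG00000022521.10, chromosome 16 from 4081328 to 4213997), the CREB-binding histone acetyltransferase whose promoter is printed above, was at 36.8 and 37.7 CPM in KO_db/db, 41.6 and 49.6 CPM in db/db and 5.51, 5.23 and 7.41 CPM in db/+. Ankrd11, an ankyrin repeat cofactor of chromatin, was at 62.4 and 74.8 CPM in KO_db/db, 81.3 and 94.3 CPM in db/db and 10, 9.5 and 15.2 CPM in db/+. Tet2, which oxidises methylated cytosine in DNA, was at 8.44 and 10.8 CPM in KO_db/db, 10.8 and 15 CPM in db/db and 0.996, 1.44 and 3.02 CPM in db/+. Crebbp differed by at most 1.42 times between mice of a group, and for Tet2 the db/+ mice differed by over 3 times with mouse 3 highest. Zfp462, a zinc finger protein of heterochromatin, was at 21.5 and 29.3 CPM in KO_db/db, 35.8 and 38.9 CPM in db/db and 5.65, 4.75 and 8.8 CPM in db/+, with a KO_db/db mean 0.68 times that of db/db by library totals and 0.810 times on the TMM scale. Trim66, a chromatin reader of the tripartite motif family, was at 7.38 and 8.65 CPM in KO_db/db, 9.45 and 13.6 CPM in db/db and 1.49, 1.18 and 0.998 CPM in db/+. Further chromatin members were Spen, Setd2, Bptf, Tet3, Chd7, Arid1b, Tnrc18, Med13l, Ncoa6 and Mllt6, each of which was also without overlap between lean and diabetic libraries, as the choice required.

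Transcription factors and co-factors formed a smaller set. Zfp608, a zinc finger protein, was at 29.7 and 31.9 CPM in KO_db/db, 30.3 and 44.6 CPM in db/db and 3.84, 3.95 and 6.56 CPM in db/+. Zfp335, a zinc finger factor whose promoter is printed above, was at 37.6 and 35.4 CPM in KO_db/db, 38.3 and 36.9 CPM in db/db and 6.12, 7.18 and 7.86 CPM in db/+. Sox4, an SRY-box factor of endocrine differentiation, was at 79.9 and 52.9 CPM in KO_db/db, 45.1 and 84.4 CPM in db/db and 12.3, 17.2 and 18.1 CPM in db/+. Zfp335 was even across the 4 diabetic libraries, whereas Sox4 was highest in db/db mouse 2 and KO_db/db mouse 1. Tshz2, a teashirt zinc finger factor, was at 56.3 and 89.4 CPM in KO_db/db, 50.9 and 75.2 CPM in db/db and 13, 12.4 and 16.2 CPM in db/+. Zfhx2, a zinc finger homeobox factor, was at 111 and 103 CPM in KO_db/db, 158 and 129.8 CPM in db/db and 34.6, 31 and 36.7 CPM in db/+.

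Signalling members covered cAMP, insulin and growth factor pathways. Pde3a, a phosphodiesterase that breaks down cAMP, was at 12.8 and 26 CPM in KO_db/db, 21.3 and 35.1 CPM in db/db and 2.7, 2.97 and 2.45 CPM in db/+. Sik1, a salt-inducible kinase that restrains CREB co-activators, was at 9.86 and 11.5 CPM in KO_db/db, 14.8 and 10.3 CPM in db/db and 0.818, 0.446 and 1.24 CPM in db/+. Irs2, an adaptor of the insulin receptor, was at 67.4 and 53.1 CPM in KO_db/db, 78.6 and 82.6 CPM in db/db and 13.3, 13.6 and 19.5 CPM in db/+. Sik1 rested on few counts in the lean libraries (23, 14 and 41) and Irs2 was well expressed in all 7. Lmtk3, a lemur tail kinase, was at 10.7 and 16.1 CPM in KO_db/db, 15.7 and 23 CPM in db/db and 1.78, 0.893 and 2.15 CPM in db/+. Pik3r5, a regulatory subunit of phosphoinositide kinase, was at 6.22 and 15.1 CPM in KO_db/db, 12.6 and 15.6 CPM in db/db and 1.88, 2.39 and 1.24 CPM in db/+. Kit, the receptor of stem cell factor, was at 9.96 and 16.8 CPM in KO_db/db, 13.2 and 21.3 CPM in db/db and 1.88, 2.84 and 1.36 CPM in db/+. For these 3 the lowest diabetic library was KO_db/db mouse 1, and it was 2.6 times the highest lean library for Pik3r5 and 3.51 times for Kit. Il6ra, the receptor of interleukin-6, was at 234 and 267 CPM in KO_db/db, 398 and 344 CPM in db/db and 72.5, 87.1 and 83.6 CPM in db/+, with a KO_db/db mean 0.673 times that of db/db by library totals and 0.811 times on the TMM scale.

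Small GTPases and their regulators gave 5 members. Arl4d, a GTPase of the ARF family whose promoter is printed above, was at 65.4 and 35.6 CPM in KO_db/db, 38.8 and 86.1 CPM in db/db and 10.2, 5.8 and 10.3 CPM in db/+. Arhgap36, a GTPase-activating family protein that inhibits protein kinase A, was at 8.18 and 37 CPM in KO_db/db, 20.5 and 26.6 CPM in db/db and 2.77, 2.2 and 3.45 CPM in db/+. Both varied between mice, Arl4d by 2.22 times within db/db and Arhgap36 by 4.52 times within KO_db/db, the widest spread of any member. Rapgef2, an exchange factor for Rap, was at 20.1 and 23.4 CPM in KO_db/db, 21.9 and 27.2 CPM in db/db and 4.98, 4.27 and 5.38 CPM in db/+. Iqsec2, an exchange factor for ARF, was at 26.6 and 28.4 CPM in KO_db/db, 33.6 and 34.2 CPM in db/db and 6.44, 5.96 and 8.86 CPM in db/+. Dab2ip, a Ras GAP, was at 35.3 and 39.9 CPM in KO_db/db, 45.3 and 42.6 CPM in db/db and 9.32, 10.1 and 10.3 CPM in db/+. These 3 differed by at most 1.24 times between mice in both diabetic groups.

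Adhesion and matrix members were Cd9, Col27a1, Sdk1 and Fat1. Col27a1, a fibrillar collagen, was at 8.04 and 12.2 CPM in KO_db/db, 11 and 11.4 CPM in db/db and 0.782, 0.51 and 0.726 CPM in db/+. Cd9, a tetraspanin of the cell surface, was at 5.86 and 14.7 CPM in KO_db/db, 5.04 and 16 CPM in db/db and 0.889, 0.67 and 0.484 CPM in db/+. Col27a1 was below 1 CPM in each lean library, and Cd9, like Kcnk9, was lower in mouse 1 than in mouse 2 of both diabetic groups. Sdk1, an immunoglobulin adhesion protein, was at 26.6 and 42.8 CPM in KO_db/db, 34.9 and 31.3 CPM in db/db and 5.33, 4.37 and 7.47 CPM in db/+. Fat1, a giant cadherin, was at 88 and 122 CPM in KO_db/db, 72.5 and 130.4 CPM in db/db and 20.4, 16.7 and 21.2 CPM in db/+. By library totals both had nearly equal means in the 2 diabetic groups (1.05 and 1.03 times). Cd44, the hyaluronan receptor, which was named after its values were seen, was at 58.6 and 116 CPM in KO_db/db, 106 and 147 CPM in db/db and 19.1, 24 and 30.9 CPM in db/+, and its lowest diabetic library was 1.90 times its highest lean one.

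Of the genes of highest rank in none of these lists, Prrc2c, a proline-rich protein of stress granules, was at 70.4 and 83.6 CPM in KO_db/db, 92.4 and 97.8 CPM in db/db and 13.4, 13.5 and 18.2 CPM in db/+. Ankrd50, a protein of endosomal recycling, was at 28.3 and 31.3 CPM in KO_db/db, 44.1 and 40.9 CPM in db/db and 5.9, 7.94 and 5.6 CPM in db/+. Dnah9, an axonemal dynein of motile cilia, was at 11.1 and 38.7 CPM in KO_db/db, 30.8 and 32.7 CPM in db/db and 3.8, 3.7 and 5.72 CPM in db/+. Prrc2c and Ankrd50 were even across mice, and Dnah9 in KO_db/db mouse 2 was 3.47 times that in mouse 1.

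Over all 100 members, the db/db mean was 4.06 to 40.7 times the db/+ mean with a median of 5.22, and the KO_db/db mean was 2.87 to 38.4 times with a median of 4.64. Relative to the db/+ mean, the median member was at 4.15 and 5.01 in KO_db/db, 4.74 and 5.71 in db/db, and 0.931, 0.895 and 1.17 in db/+. db/+ mouse 3, the library with Y-linked counts, was thus the highest of the lean libraries. Together the members took 0.575% and 0.687% of the counts in KO_db/db, 0.661% and 0.752% in db/db and 0.123% to 0.152% in db/+.

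**Figure D2:**
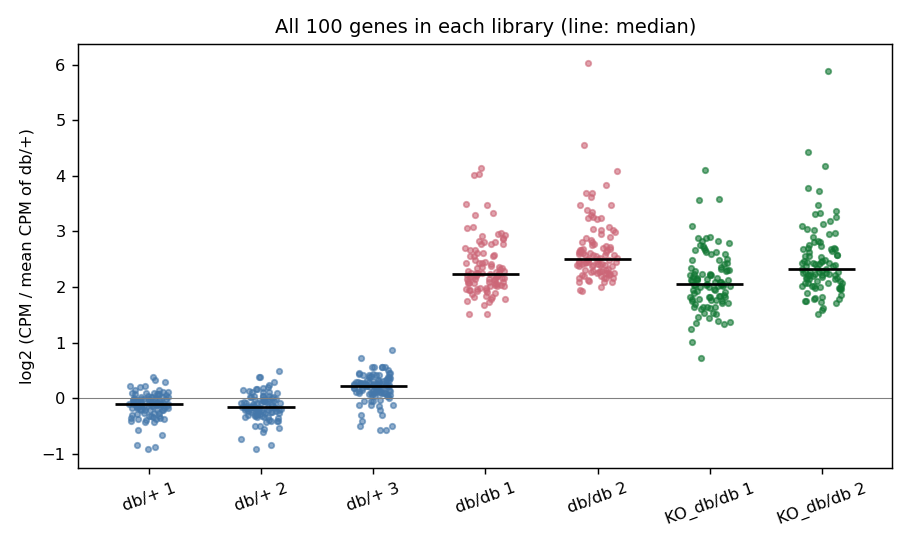
log2 ratio of the CPM of each of the 100 members to its mean in db/+, by library, with 1 point per gene and a line at the median. The lean libraries are centred near 0, and the medians of the other 4 correspond to 4.15 to 5.71 times the db/+ mean.

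The gap between the groups differed among members. The lowest of the 4 diabetic values was at the median 3.33 times the highest lean value, and under 2 times in 6 members. The smallest gap was that of Rnf150, a RING finger ubiquitin ligase, at 1.40, with values of 13.4 and 37.7 CPM in KO_db/db, 23.3 and 46.7 CPM in db/db and 6.15, 9.6 and 8.71 CPM in db/+. Fam163a, a membrane protein, followed at 1.71, with values of 4.29 and 14.3 CPM in KO_db/db, 7.55 and 16.9 CPM in db/db and 1.67, 2.2 and 2.51 CPM in db/+. In both, KO_db/db mouse 1 was the lowest diabetic library. Spread over 2 times between mice was seen in 8 members within KO_db/db (Kcnk9, Pde3a, Cd9, Arhgap36, Dnah9, Pik3r5, Fam163a and Rnf150), in 6 within db/db (Kcnk9, Cd9, Arl4d, Galnt18, Fam163a and Rnf150) and in 10 within db/+ (Zcchc12, Kcnk9, Lmtk3, Sik1, Kit, Tet2, Usp2, Sptb, Otud7a and Camk1d). Galnt18, a glycosyltransferase of the Golgi, was at 92.2 and 126 CPM in KO_db/db, 76 and 161 CPM in db/db and 22, 29.4 and 16 CPM in db/+. Otud7a, a deubiquitinase, was at 11 and 12.1 CPM in KO_db/db, 15.6 and 15.5 CPM in db/db and 1.74, 1.88 and 5.72 CPM in db/+, with db/+ mouse 3 at over 3 times the other lean mice. Usp2, a deubiquitinase linked to the circadian clock, was at 13.7 and 15.1 CPM in KO_db/db, 13.4 and 21.6 CPM in db/db and 1.78, 2.49 and 4.14 CPM in db/+. Camk1d, a calcium-dependent kinase, was at 16.8 and 15.3 CPM in KO_db/db, 18.2 and 23.1 CPM in db/db and 3.52, 3.13 and 6.5 CPM in db/+. The lean values of Usp2 and Camk1d were also highest in mouse 3.

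The fit over all genes (edgeR, quasi-likelihood, adjusted p under 0.05 by Benjamini-Hochberg) places these values beside the rest of the table. All 100 members were called higher in db/db against db/+, where 19.9% of the 13406 genes tested were called higher (37.8% in either direction). All 100 were called higher in KO_db/db against db/+, where 20.5% of 13228 genes were (38.4% in either direction). As the choice of members used both contrasts, nothing is read from these counts. The median log2 fold change of the members was 1.89 in db/db (1.53 to 4.82) and 2.00 in KO_db/db (1.33 to 4.93), and that of all genes tested was 0.01 and -0.00. Both contrasts share the 3 db/+ libraries. Leaving out KO_db/db mouse 1, the library with most acinar counts, gave a median of 1.93 in KO_db/db, and leaving out db/+ mouse 3 gave 2.01 in db/db and 2.09 in KO_db/db. Otud7a was no longer called in db/db when db/db mouse 1 or 2 or db/+ mouse 1 or 2 was left out. In KO_db/db it was lost without KO_db/db mouse 1 or 2 or db/+ mouse 1 or 2, Camk1d without KO_db/db mouse 1, Fam163a without KO_db/db mouse 2, and Rnf150 without KO_db/db mouse 2 or db/+ mouse 1.

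**Figure D3:**
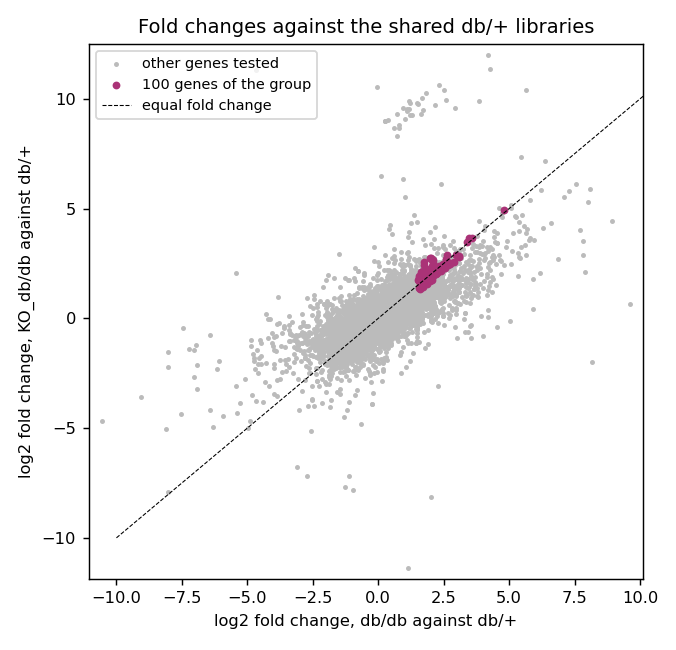
log2 fold change against db/+ in KO_db/db (vertical) and in db/db (horizontal) for each gene tested in both comparisons, which share the db/+ libraries, with the 100 members coloured and a dashed line at equal fold change. The members lie close to the line, at 1.53 to 4.82 in db/db and 1.33 to 4.93 in KO_db/db, as their choice required.

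KO_db/db and db/db were compared directly as well. By library totals the KO_db/db mean was 0.673 to 1.43 times the db/db mean, at the median 0.818 times, and below 1 in 83 members. TMM scaling, which sets the bulk of genes equal, gave 0.801 to 1.77 times with a median of 0.990, and 54 members below 1. Leaving the acinar genes out of the totals gave a median of 0.912. The size of the difference between the diabetic groups, and its direction for many members, therefore depended on the scale. Library totals shifted the median expressed gene by 0.50 on the log2 scale in db/db against db/+, by 0.22 in KO_db/db against db/+ and by -0.27 in KO_db/db against db/db, where TMM gave 0.04, 0.01 and -0.02. Against db/+ the median member was higher by 1.79 in db/db and 1.86 in KO_db/db on the log2 TMM scale, and by 2.25 and 2.04 by totals, which include the shift.

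In the fit of KO_db/db against db/db, 0 members were called by edgeR, where 0.319% of 13486 genes were called in either direction. At an unadjusted p under 0.05 there were 7 members, and 20.9% of all genes. DESeq2 called 2 (Dync1h1 and Sptb), where it called 5.18% of genes higher, and edgeR without a filter on low counts called 3 (Kdm6b, Sptb and Tnrc18), where 4.10% were called higher. These 4 genes had the log2 differences 0.46 (standard error 0.16) for Dync1h1, 0.72 (standard error 0.21) for Sptb, 0.75 (standard error 0.27) for Kdm6b and 0.82 (standard error 0.29) for Tnrc18, all higher in KO_db/db. Tnrc18, a chromatin protein, was at 79.6 and 64.8 CPM in KO_db/db, 40.6 and 60.2 CPM in db/db and 9.99, 10.4 and 12.1 CPM in db/+. In the other direction Sh3bp4, an endocytic adaptor with a ratio of 0.682 by library totals and 0.829 on the TMM scale, was at 56.1 and 55.9 CPM in KO_db/db, 77.2 and 87.1 CPM in db/db and 21.2, 19.2 and 18.1 CPM in db/+, a log2 difference of -0.27 (standard error 0.17). Over the members these log2 differences were -0.32 to 0.82 with a median of -0.02, equal to that of all genes. Since the limits on the ratio of the means were part of the choice, they do not show that the deletion left the group unaffected.

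A property that the choice did not use was the length of the transcripts. The longest annotated transcript of the members (GENCODE, GRCm38) had a median of 7456.5 bases, against 3651.5 bases in 8216 genes with a mean db/db level of at least 10 CPM, and 93 of the 100 members were above the latter. The longest were those of Macf1 (23495 bases), Dst (23279), Kmt2d (19823) and Kmt2a (16470), and the shortest those of Cd9 (1228), Arl4d (1382) and Zcchc12 (2197). The longest member transcripts had a median of 19 exons against 9, and their genes spanned a median of 82523 bases against 27222.5. GC content was 51.9% against 49.5%. When the expressed genes were divided by length into 5 classes of nearly equal size, these held 2, 3, 6, 18 and 71 members from the shortest to the longest.

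Length went with the change over the whole table. Genes that passed each step of the choice and ranked after the members up to 500 had a median longest transcript of 6003 bases, and those after rank 500 one of 4148. The 100 genes chosen by the mirrored steps, with all diabetic values below the lean ones, had a median of 3464. From the shortest to the longest class of the genes tested, the median change in db/db relative to db/+ was -0.19, -0.05, -0.03, 0.05 and 0.31 on the log2 scale, and in KO_db/db it was -0.21, -0.09, -0.03, 0.08 and 0.41. The share called higher went from 10.1% to 35.7% in db/db and from 7.81% to 41.4% in KO_db/db. By library, the longest class exceeded the shortest by 0.60 and 0.60 on the log2 scale in KO_db/db, by 0.41 and 0.51 in db/db, and by -0.05, -0.02 and 0.07 in db/+, relative to the lean mean. The part of transcript length, or of RNA quality, in the levels of the members was not tested.

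**Figure D4:**
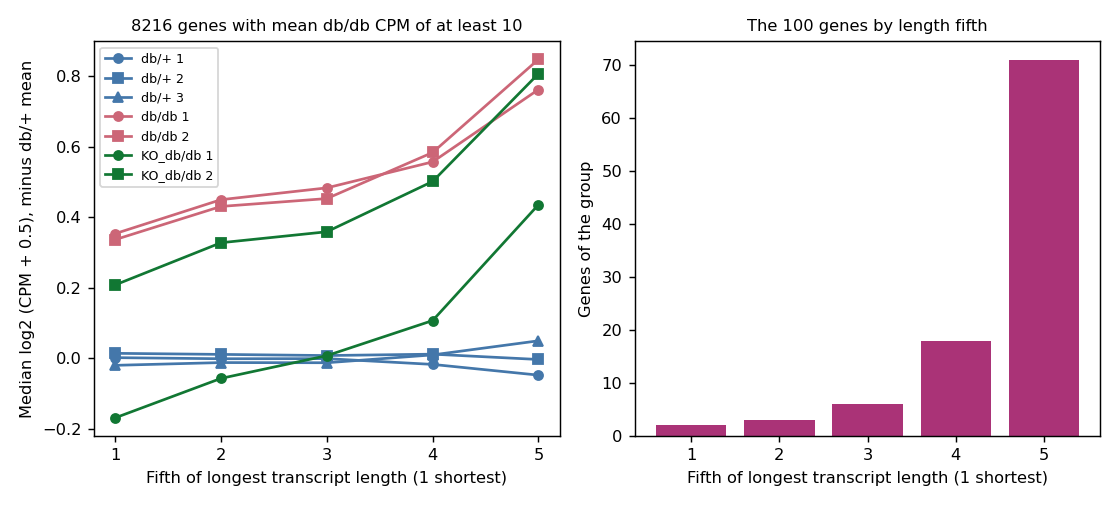
Left, median log2 level of the expressed genes relative to the db/+ mean, by length class (5 classes of the longest transcript), with 1 line per library. Right, number of members in each class. The lines of the 4 diabetic libraries climb by 0.41 to 0.60 from the shortest to the longest class while the db/+ lines stay near 0, and 71 of the 100 members are in the longest class.

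Genes of the same roles that were not members were fitted as well. The same values decided which genes were left out. The strongest rises therefore remain here only where another step failed, such as the limits on the KO_db/db to db/db ratio. The lists were drawn up with earlier results of these data known and in part from genes named there, so that they are no independent evidence of a direction. For the counts below, 19.9% of all genes tested rose and 18% fell in db/db against db/+. In KO_db/db against db/+ 20.5% rose and 17.9% fell. Of 52 chromatin regulators outside the group, 40 rose in db/db against db/+ and 0 fell, with a median log2 fold change of 0.94, against 0.01 for all genes tested. In KO_db/db 47 of the 52 rose and 0 fell (median 1.10). Without KO_db/db mouse 1 this count was 43, and without db/+ mouse 3 it was 48 in KO_db/db and 39 in db/db. These genes are long as well, with 51 of the 52 in the longest class. In that class 78.4% of them rose in db/db, where 35.7% of all genes of the class did, and 90.2% in KO_db/db, where 41.4% did. For db/db the class ran from 5305 to 123179 bases, and the 52 genes had a median of 8179. Length was not matched within the class, so role and length cannot be told apart here.

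The largest rises in db/db among these non-members were those of Srcap, Chd9 and Chd2, all of which encode chromatin remodelling ATPases. Srcap was at 50.7 and 62.3 CPM in KO_db/db, 88.5 and 82.2 CPM in db/db and 10.1, 10.2 and 18.1 CPM in db/+, a log2 fold change in db/db of 2.24 (standard error 0.26, adjusted p = 0.00153 from edgeR). Chd9 was at 151 and 152 CPM in KO_db/db, 271 and 351 CPM in db/db and 52.1, 38.9 and 64.7 CPM in db/+, a log2 fold change of 2.09 (standard error 0.22, adjusted p = 0.00119 from edgeR). Chd2 was at 29.7 and 43.3 CPM in KO_db/db, 60.2 and 58.7 CPM in db/db and 10.4, 13.2 and 11.9 CPM in db/+, a log2 fold change of 1.84 (standard error 0.13, adjusted p = 0.000492 from edgeR). Lean and diabetic libraries did not overlap for any of the 3, and by library totals each KO_db/db value was below each db/db value for all 3. With rises this large, they stayed outside the group only through the limits on the KO_db/db to db/db ratio. The order of the 2 diabetic groups in these 3 genes was thus tied to the choice, and nothing is read from it. In KO_db/db against db/db edgeR called 0 of the 52 chromatin regulators outside the group (10 at an unadjusted p under 0.05, 5 in each direction), and DESeq2 called 3 of 53 higher and 1 lower. Of all genes, edgeR called 0.319%, 20.9% had an unadjusted p under 0.05 from edgeR, and DESeq2 called 5.18% higher. The counts of chromatin regulators were near these shares. At 10 CPM or more, Med13, Chd3 and Kdm2a had the smallest changes that passed the test, 0.43, 0.60 and 0.64 on the log2 scale.

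Transcription factors rose in a similar share of genes to the chromatin regulators, and golgins in a smaller one. Of 42 transcription factors outside the group, 33 rose in db/db and 37 in KO_db/db, 0 fell in either, and the medians were 1.30 and 1.44. Of 35 cytolinkers and scaffolds, 25 rose and 1 fell in db/db, and 29 rose and 1 fell in KO_db/db. Dbn1, which encodes the actin-binding protein drebrin, rose with a log2 fold change of 2.86 (standard error 0.29, adjusted p = 0.0011 from edgeR), and Map2, a microtubule protein, fell with one of -0.68 (standard error 0.16, adjusted p = 0.016 from edgeR). By library totals Map2 was at 138 and 186 CPM in db/db and 198, 190 and 165 CPM in db/+. These values overlap, and the size of its fall depended on the scale. Of 15 golgins, 7 rose and 0 fell in db/db, and 8 rose and 2 fell in KO_db/db. Gcc2, a golgin of the trans-Golgi, rose with a log2 fold change of 1.42 (standard error 0.14, adjusted p = 0.00101 from edgeR). Of the golgins outside the longest class, 2 of 9 rose in db/db and 5 of the 6 within it did.

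Adhesion and guidance genes outside the group numbered 51 in db/db, of which 33 rose and 4 fell, and 50 in KO_db/db, of which 37 rose and 3 fell. Here 12 of the 13 genes outside the longest class rose in db/db, among them Ntn1, which encodes the guidance cue netrin. Ntn1 was at 7.75 and 10.2 CPM in KO_db/db, 23.1 and 36 CPM in db/db and 0.142, 0.128 and 0.0605 CPM in db/+, a log2 fold change of 7.56 (standard error 0.34, adjusted p = 0.000158 from edgeR). Small GTPases and their regulators rose in 31 and fell in 3 of 47 genes in db/db, and rose in 31 and fell in 2 in KO_db/db. Rapgef5, an exchange factor for Rap, was at 16.5 and 25.8 CPM in KO_db/db, 105 and 100.3 CPM in db/db and 3.13, 2.65 and 3.87 CPM in db/+, so that the lean and diabetic libraries did not overlap and KO_db/db lay between. Its KO_db/db to db/db ratio was below the limit of the choice, which is why so strong a rise stood outside the group. Kinases and signalling enzymes rose in 29 and fell in 2 of 42 genes in db/db, and ion channels rose in 23 and fell in 7 of 48. Without KO_db/db mouse 1 the counts that rose in KO_db/db were 31 transcription factors, 25 cytolinkers, 7 golgins, 30 adhesion genes, 26 GTPase genes and 21 kinases, the last against 27 with it.

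Cyclic AMP and activity-regulated genes had 1 member, Sik1. Of the 34 others tested in db/db, 26 rose and 2 fell, with a median log2 fold change of 1.79, and of 31 tested in KO_db/db 15 rose and 2 fell (median 1.07). Between KO_db/db and db/db their median difference was -0.87, and edgeR called 0 of 33, with 15 at an unadjusted p under 0.05 (2 higher and 13 lower in KO_db/db), while DESeq2 called 1 of 37 higher and 8 lower. Of all genes, edgeR called 0.319%, 20.9% had an unadjusted p under 0.05 from edgeR, and DESeq2 called 5.18% higher. The share of all genes that DESeq2 called lower was not computed. Arc, an activity-regulated gene, was at 4.22 and 30 CPM in KO_db/db, 76.6 and 43.3 CPM in db/db and 1.53, 2.17 and 2.27 CPM in db/+, where KO_db/db mouse 1 was close to the lean libraries. Solute carriers, fasting genes, clock genes, retinoid enzymes and secreted factors had 0 members, and progenitor genes had 1, Sox4. In db/db, solute carriers rose in 14 and fell in 7 of 34, fasting and fatty acid genes rose in 16 and fell in 2 of 25, retinoid genes rose in 4 and fell in 1 of 11, and secreted factors rose in 17 and fell in 3 of 25. Progenitor genes outside the group rose in 8 and fell in 3 of 16, with 5 that rose without db/db mouse 2. Of all genes tested, 19.9% rose and 18% fell in db/db. The falls among solute carriers and progenitor genes were thus near the share of all genes. Clock genes rose in 6 and fell in 0 of 17 in db/db, but 2 rose and 4 fell without db/db mouse 2, 3 rose without db/+ mouse 2, and 4 rose and 3 fell with the mouse number as a block. In KO_db/db the counts that rose were 14 of 34 solute carriers (8 fell), 11 of 23 fasting genes (2 fell), 6 of 17 clock genes (0 fell), 5 of 12 retinoid genes (0 fell), 12 of 24 secreted factors (2 fell) and 7 of 17 progenitor genes (0 fell). Without KO_db/db mouse 1 these were 9 solute carriers, 7 fasting genes, 5 clock genes, 3 retinoid genes, 5 secreted factors and 4 progenitor genes. Without KO_db/db mouse 2, 9 solute carriers and 4 progenitor genes rose, without db/+ mouse 1, 7 fasting genes, without db/+ mouse 2, 3 retinoid genes, and with the block, 4 progenitor genes. Among 15 β-cell markers, none of them members, 12 fell and 1 rose in db/db, and 9 fell and 1 rose in KO_db/db. Of all genes tested, 18% fell in db/db and 17.9% in KO_db/db.

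**Figure D5:**
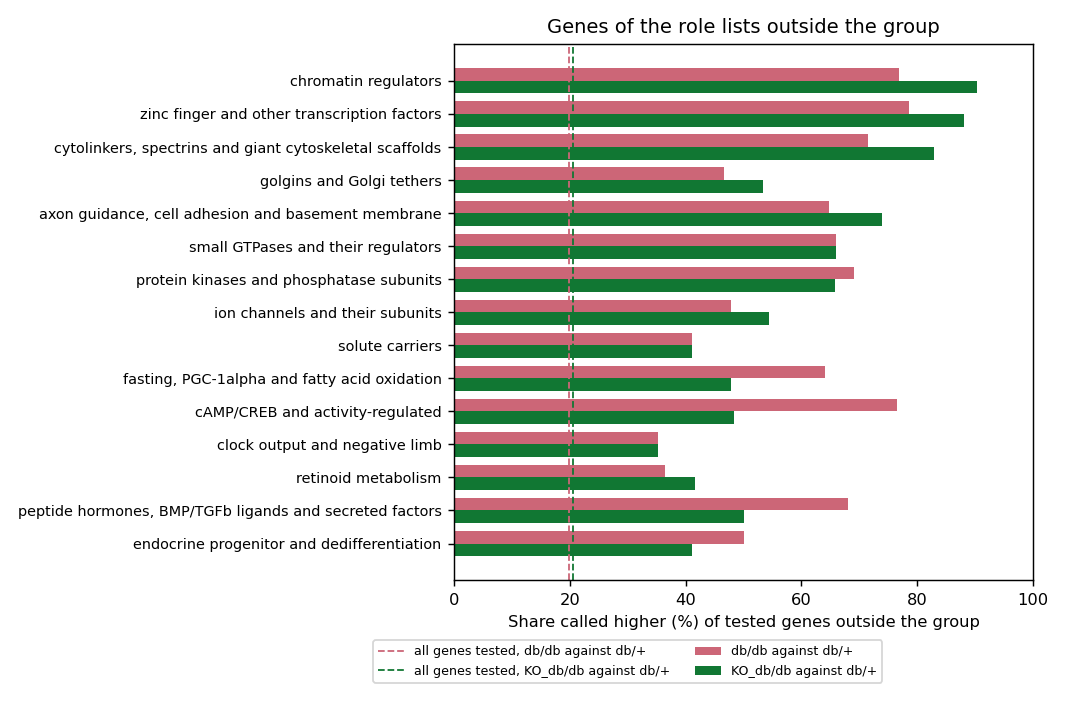
Share of the tested genes outside the group that were called higher (%), for each role list, in db/db and in KO_db/db against db/+. Dashed lines mark the share of all genes tested, 19.9% and 20.5%; chromatin regulators reach 40 and 47 of 52 genes.

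The members were spread over 18 chromosomes. Chromosome 5 held 14 of them, where 6.72% of the expressed genes lie, chromosome 2 held 10 (8.09% of expressed genes) and chromosome 18 held 6 (2.73%). The 7 members on chromosome 4, which carries Lepr, all started far from it, the nearest being Macf1 at 21.6 Mb. Of the 7 on chromosome 7, which carries Aldh1a3, Otud7a started 2.95 Mb and Akap13 9.06 Mb from it. Of 10 pairs of members that started within 1 Mb of each other, 6 were among 4 genes of chromosome 9. These were Usp2 (44067021 to 44095627), Bcl9l (44482825 to 44511896), Phldb1 (44686304 to 44735198) and Kmt2a (44803355 to 44881296). Phldb1, a pleckstrin homology protein of the cell cortex named after its values were seen, was at 11.6 and 14 CPM in KO_db/db, 13.6 and 17.3 CPM in db/db and 3.31, 3.22 and 3.18 CPM in db/+. Bcl9l, a co-activator of Wnt signalling, was at 22 and 22.1 CPM in KO_db/db, 23.3 and 28.3 CPM in db/db and 5.8, 5.64 and 6.38 CPM in db/+. The 4 neighbours were at 4.34 to 6.25 times the lean mean in db/db, and were without overlap between lean and diabetic libraries, as the choice required of every member.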

How the data were processed

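RNA-seq libraries of sorted β-cells were grouped by genotype and mouse from the labels. Per the submitters' processing notes the tools were bcl2fastq 2.19 and kallisto 0.44.0, on GRCm38, and the annotation release was not given in the sources used here. The authors deposited estimated counts per gene, rounded to whole numbers and not normalized, and 0 columns were left unused. kallisto divides reads among similar transcripts, so that counts of near-identical genes are uncertain. Replicates were separate mice, and they differed by more than counting noise.

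CPM were computed on library totals, as the choice of members requires. Each comparison was fitted on its 2 groups' libraries in R 4.3.3 with edgeR 4.0.16 (filterByExpr with a minimum count of 10, TMM, quasi-likelihood test, Benjamini-Hochberg adjustment, threshold 0.05). Standard errors were derived from the log2 fold change and the square root of F. DESeq2 1.42.0, named in the study's methods, was an alternative. An exact permutation test of 1 gene (two-sided) has a smallest possible p of 0.333 for 2 mice against 2. On simulated data with 200 genes changed by 2 on the log2 scale, the fit recovered 200 in db/db against db/+ (5 others called among 13160 genes), 200 in KO_db/db against db/+ (8 among 13024) and 195 in KO_db/db against db/db (6 among 13293). The simulated counts had 1 dispersion for all genes, unlike the real ones, so these counts do not give the power in the real libraries. In the real KO_db/db against db/db fit, 0 of 43 acinar genes were called, at a median log2 difference of 8.06.

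The members, role lists and tests were chosen with earlier results of these data known. Named members were the 25 of highest rank, up to 4 further members of each list, the 3 lowest and 3 highest KO_db/db to db/db ratios, those next to the rank limit and those with over 2 times spread within a group. Named genes outside the group were taken from the 3 largest and 3 smallest called changes in db/db per list at 10 CPM or more. Transcript lengths and coordinates came from GENCODE (GRCm38), which held 34222 of 35013 symbols and all 100 members, and promoters from RefSeq (GRCm38.p6). Alternatives were RLE scaling, DESeq2, no filter on low counts, 1 fit of all 7 libraries, the mouse number as a block, the acinar genes left out, a threshold of 0.01, other limits in the choice of members and leaving out each library. A few members are not reported here by name.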

Additional observations from a re-analysis of the deposited data

How the results depend on the processing

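The calls of members against db/+ stayed at 97 to 100 of 100 under each alternative run, and no member's fold change against db/+ fell to 0 or below in 12 settings. The members were chosen by these same contrasts in the same libraries, so nothing is read from the stability of these calls and signs. Leaving out 1 library gave 99 to 100 calls in db/db and 97 to 100 in KO_db/db, and medians of 1.76 to 2.01 and 1.93 to 2.09. In KO_db/db against db/db the median was -0.09 to 0.10 when 1 library was left out, so that its sign is not settled. DESeq2 called 2 members there and no filter on low counts 3, against 0. Of genes of the role lists outside the group, 13 were called in that comparison, against 135 with DESeq2, 162 without a filter, 84 with 1 fit of all libraries, 6 with the replicate block and 0 to 38 when 1 library was left out (0 without db/db mouse 1, 28 without KO_db/db mouse 2 and 38 without db/db mouse 2). The alternatives for genes outside the group were chosen after seeing the data, and the cause of these differences was not tested.

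The labels do not say whether mouse numbers mark pairs. Same-numbered libraries had correlations of deviations of -0.10 to 0.08. In groups of 2 mice the deviations are exact opposites, so that the other-numbered mouse gives the same size with the opposite sign. These values therefore do not settle the question. With the replicate block, 100, 100 and 0 members were called in the 3 comparisons, with medians of 2.01, 2.08 and -0.02, and 333 and 291 genes outside the group against db/+. The choice of members itself was less stable. Of the 100, 55 were chosen again with a narrower limit on the KO_db/db to db/db ratio (0.8 at the low end), 69 with TMM levels, 77 without acinar genes in the totals and 67 to 93 without 1 library. The median over all transcripts of a gene, in place of the longest, gave a median length of 2774 bases for the members and 1414 for the expressed genes. Depth limits the lean values of Kcnk9 and Sik1, and 2 or 3 mice a group limit the precision throughout.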
